A study of Mus musculus with 26 samples.

Results

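Imprinted genes were followed through chemical reprogramming of mouse fibroblasts, with 10 of them in detail, namely Peg10, H19, Dlk1, Meg3, Peg3, Mest, Grb10, Plagl1, Sgce and Ndn. They were taken by name from a list of imprinted genes, and all 10 were found among the 16718 genes of the deposited table. The choice was made with earlier results of these data known, so shares of members called beside those of all genes are descriptions. All 10 also had a mean high enough to be tested in each of the 10 comparisons below. RNA was sequenced in 26 libraries. The minus BrdU course, which lacked bromodeoxyuridine (a thymidine analogue), had 1 library on each of days 6, 12, 18, 22, 30, 36 and 40. The minus Chir course, which lacked Chir (an inhibitor of the kinase GSK3), had 1 library on each of days 6, 12, 18, 22 and 30. The full course, which received all chemicals, had 1 library on each of the 7 days. CiPSC, the established chemically induced pluripotent stem cells, had 6 libraries, and MEF, the mouse embryonic fibroblasts of day 0, had 1. Strain, age and the clones behind the CiPSC libraries are not in the labels, so the spread over CiPSC libraries may be technical. The labels name no separate cultures within a course, so each course is known from 1 library per day.

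Imprinted genes are transcribed mainly from the allele of 1 parent, and the silent allele carries a mark, usually DNA methylation of a control region, that was set in the egg or the sperm. The methylation is kept through early development by zinc finger proteins such as ZFP57 and by the maintenance methyltransferase, while TET enzymes can remove it. Many imprinted genes act on fetal growth and are high in embryonic fibroblasts, yolk sac or placenta. RNA levels, as measured here, are sums over both alleles, so they do not show which parent's allele was read.

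The values are scores that the authors normalized, and they limit what can be read. Every library has a maximum of 21988, which exactly 10 genes hold. Just under it, again 10 genes in each library hold a value between 11324 and 11346, and 10 more a value between 8303 and 8336. The first 10 such steps were counted, the lowest of them at 3840 to 3854. A value on these steps is a position near the top of a library and not an amount, so a gene that stands at 21988 cannot show a higher level. Of the 260 values of the 10 genes, 10 stand at the maximum, 9 of them of H19 and 1 of Peg10. On any of the 10 steps counted stand 44 values of 7 members, with 16 of H19, 9 each of Peg10 and Peg3, 4 of Dlk1, 3 of Mest, 2 of Grb10 and 1 of Plagl1, and folds that use them are limited in the same way. Steps below these 10 were not counted, but every library has a median of 76 or 77, so lower values are best read as positions too. The value 2760, for example, was held by Meg3 in MEF and on days 18 and 36 of the full course. The smooth muscle marker Tagln held it on day 36 of the minus BrdU course, and the pluripotent cell marker Tfcp2l1 in CiPSC library 2. Depth is not known for these values. Levels are compared within a gene across libraries and not between genes.

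Marker lists showed that the courses differed in makeup. The summed level of 15 fibroblast markers lay between 40539 and 82446 in the minus BrdU course, between 9996 and 34746 in the minus Chir course and between 11081 and 59043 in the full course. It was 221 to 640 in CiPSC, where Twist2, Fap and Lum were listed at 0, against 84738 in MEF. The sum of 15 extraembryonic endoderm markers had a median of 8307 in the minus BrdU course and 8783 in the minus Chir course, against 52810 in the full course, and it was 828 to 1248 in CiPSC against 18372 in MEF. The 15 pluripotent cell markers summed to 644 to 2065 in the minus BrdU course and 616 to 1594 in the minus Chir course, against 2737 to 9490 in the full course. The sum was 34236 to 48291 in CiPSC and 1174 in MEF, where 7 of the 15 markers were listed at 0, so the defining markers of CiPSC and of MEF were present where the labels place them. The 10 macrophage markers summed to 29 to 64 in CiPSC and 87 to 466 in the courses, against 4410 in MEF. In bulk RNA, fewer cells of a type and less RNA per cell cannot be told apart. The part of cell makeup in the results below was not tested.

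The sequences shown here are those of the RNA made from H19 and of the start regions of 3 members whose levels part company below. Within H19 lies the hairpin of mir-675 on chromosome 7, minus strand, and its mature forms are given because they are the short product of this long RNA. They were copied from RefSeq on GRCm38.p6, with the seed (bases 2 to 8) in capitals. The 5p form spans chr7:142577112-142577133 and the 3p form chr7:142577078-142577099.
mmu-miR-675-5p: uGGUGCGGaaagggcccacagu
mmu-miR-675-3p: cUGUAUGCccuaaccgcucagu

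Dlk1 and Meg3 are neighbours expressed from opposite parental alleles, and Mest is a gene with a CpG-rich control region at 1 of its starts. Their start regions (250 bases before to 50 after the start, RefSeq, GRCm38.p6, plus strand) are printed so that their base makeup can be compared, with the letters TGCCGC and their reverse complement GCGGCA in capitals. ZFP57 is known to bind that hexamer when its CpG is methylated. In the RefSeq table, 11.6% of 32851 windows of this length hold the hexamer on 1 strand or the other, and the median window has 7 CpG. The Dlk1 window, chr12:109452573-109452872, has 9 CpG and 0 matches. The Meg3 window, chr12:109540746-109541045, has 13 CpG and 1 match. The Mest window, chr6:30737800-30738099, has 17 CpG and 2 matches. A match is a description of letters and not a bound site.
Dlk1: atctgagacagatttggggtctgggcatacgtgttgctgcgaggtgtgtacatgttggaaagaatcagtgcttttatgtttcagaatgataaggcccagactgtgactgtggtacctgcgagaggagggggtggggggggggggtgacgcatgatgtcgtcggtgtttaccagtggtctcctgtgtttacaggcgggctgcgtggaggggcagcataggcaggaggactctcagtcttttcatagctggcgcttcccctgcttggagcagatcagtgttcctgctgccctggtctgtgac
Meg3: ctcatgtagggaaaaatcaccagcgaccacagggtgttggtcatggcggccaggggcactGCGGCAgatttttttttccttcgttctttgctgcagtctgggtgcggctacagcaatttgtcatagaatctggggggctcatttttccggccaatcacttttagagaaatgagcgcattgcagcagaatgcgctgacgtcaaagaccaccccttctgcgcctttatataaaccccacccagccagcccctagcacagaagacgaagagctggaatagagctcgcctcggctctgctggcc
Mest: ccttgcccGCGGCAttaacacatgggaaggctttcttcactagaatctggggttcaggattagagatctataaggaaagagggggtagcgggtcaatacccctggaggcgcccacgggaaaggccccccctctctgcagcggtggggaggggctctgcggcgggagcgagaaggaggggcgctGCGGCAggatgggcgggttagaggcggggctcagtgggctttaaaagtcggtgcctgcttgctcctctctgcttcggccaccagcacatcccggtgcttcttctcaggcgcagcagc

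The table held further windows for Meg3 and Mest, at other starts, and the Mest and Meg3 windows farthest from those printed have 8 and 1 CpG and 0 matches. Of the other members, start regions were found for Peg3 (13 CpG, 0 matches), Ndn (11 CpG, 0 matches), Plagl1 (26 CpG, 1 match) and Grb10 (45 CpG and 1 match at 1 start, 9 CpG and 0 matches at another). On GRCm38, in the GENCODE M21 annotation, Sgce (chr6:4674350-4747207) and Peg10 (chr6:4747306-4760517) start 99 bases apart on opposite strands, and Mest is on the same chromosome at chr6:30723547-30748465. Chromosome 7 holds Peg3 (chr7:6703892-6730431), Ndn (chr7:62346569-62350262) and H19 (chr7:142575529-142578143). Plagl1 is at chr10:13060504-13131694 and Grb10 at chr11:11930508-12038683. Dlk1 (chr12:109452823-109463336) ends 77.7 kb before Meg3 begins (chr12:109541001-109571726).

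**Figure D1:**
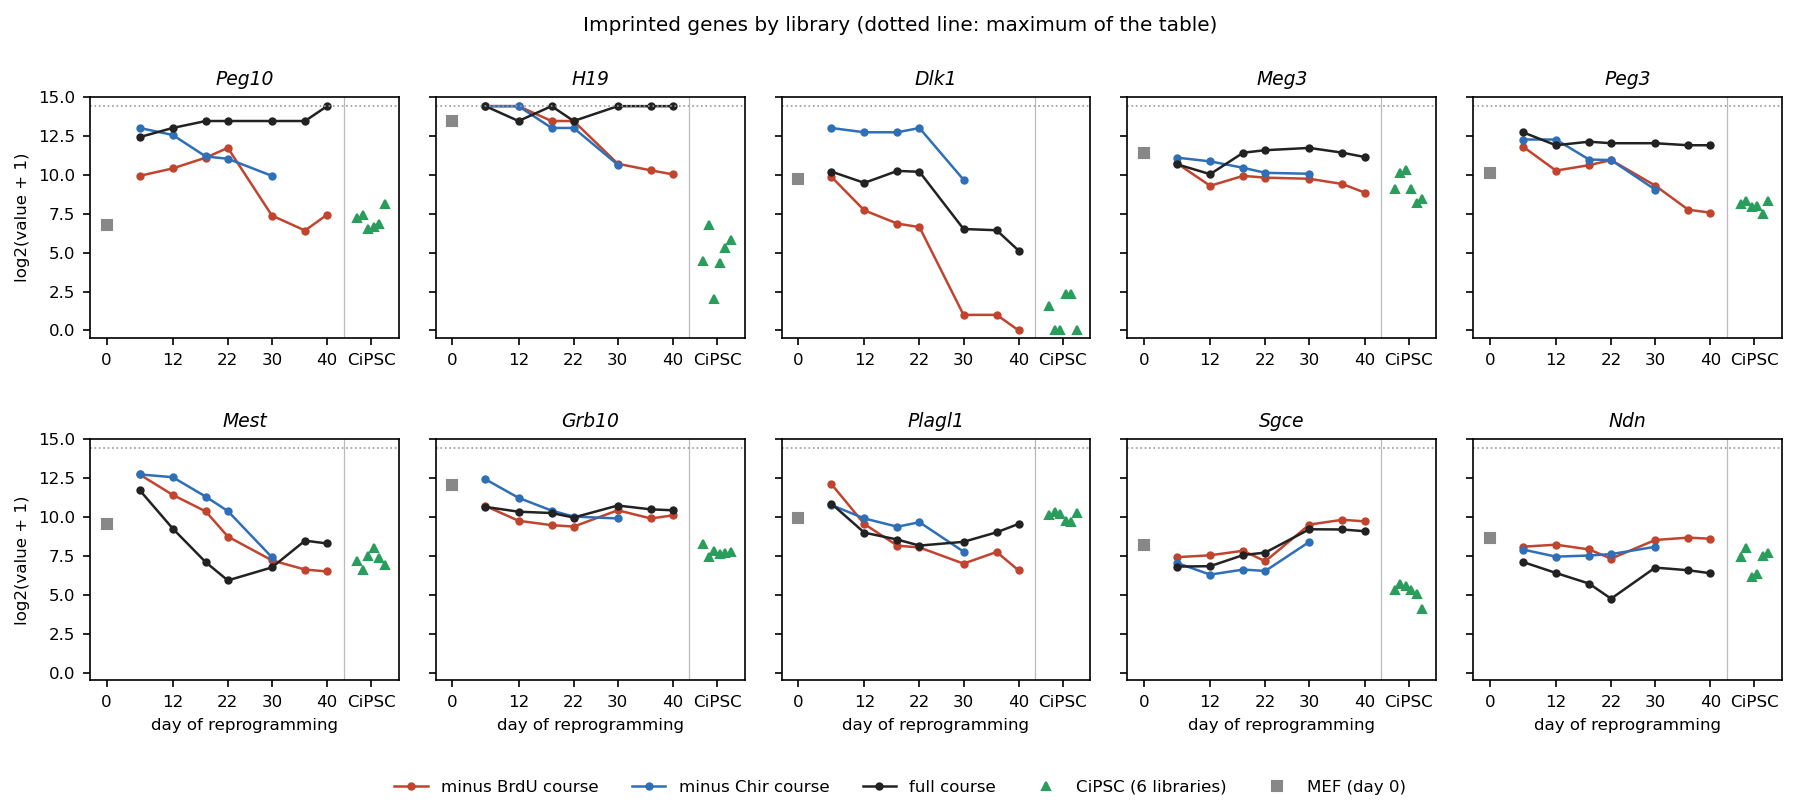
Each panel plots 1 imprinted gene as log2(value + 1) against the day of reprogramming, with 1 point per library, lines for the 3 courses, a square for MEF on day 0 and triangles for the 6 CiPSC libraries. H19 touches the dotted line of the table's maximum in 9 libraries and Peg10 in 1, and Dlk1 drops between days 22 and 30 in each course.

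Among the noncoding RNAs, H19 was at or near the top of the table in MEF and early in all courses, and it was low in CiPSC. H19 is a long RNA expressed from the maternal allele and is high in fetal tissue. Along days 6 to 40 of the minus BrdU course it stood at 21988, 21988, 11331, 11331, 1684, 1256 and 1048. Along days 6 to 30 of the minus Chir course it stood at 21988, 21988, 8314, 8314 and 1614, and in the full course it stood at 21988, 11331, 21988, 11331, 21988, 21988 and 21988. So H19 was on the top 3 steps through day 22 in each course, and from day 30 it was below them in both courses that lacked a chemical while the full course held the maximum. In CiPSC the values ran from 3 to 110 with a median of 30, against 11331 in MEF, and no CiPSC library reached the lowest of the other 20 libraries (1048). Igf2, a fetal growth factor gene expressed from the paternal allele, ends 72.6 kb from H19. It stood at 11331, 4966, 4506, 4506, 1302, 879 and 932 in the minus BrdU course, at 6868, 6084, 4966, 3420 and 1289 in the minus Chir course, and at 8314, 4208, 4208, 2907, 6868, 5529 and 5529 in the full course. Like H19 it was low from day 30 in the courses lacking a chemical, and in CiPSC it was listed at 0 in 4 of 6 libraries with a highest value of 32, against 8314 in MEF.

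Meg3 is a long RNA of the maternal allele in the Dlk1 to Dio3 region. It stood at 1712, 630, 982, 906, 862, 682 and 466 over the 7 days of the minus BrdU course. It stood at 2214, 1874, 1406, 1125 and 1078 over the 5 days of the minus Chir course. In the full course the values were 1648, 1058, 2760, 3084, 3416, 2760 and 2277. From day 18 the full course was above both others on every shared day. CiPSC values ran from 288 to 1255 with a median of 545.5, against 2760 in MEF, so each of the 6 CiPSC libraries was below MEF. Silencing of Meg3 and its neighbours is known to mark some mouse induced pluripotent stem cell clones. Here the neighbours on the same strand were also read in every CiPSC library, with Rian (a host of small nucleolar RNAs) at 400 to 2042 against 3854 in MEF, and Mirg (a microRNA host) at 52 to 134 against 108 in MEF.

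Dlk1, the paternally expressed gene next to Meg3, encodes a transmembrane protein related to Notch ligands that holds back fat cell formation. In the minus BrdU course it stood at 946, 210, 116, 99, 1, 1 and 0. In the minus Chir course it stood at 8303, 6861, 6861, 8303 and 825, and in the full course at 1190, 718, 1225, 1177, 91, 86 and 34. The minus Chir course was above the full course, and the full course above the minus BrdU course, on every day that they share. In all 3 courses the value on day 30 was below each earlier one. CiPSC had 0 in 3 libraries and a highest value of 4, against 854 in MEF. Dio3, a deiodinase gene at the far end of the region that is also read mainly from the paternal allele, had a different order. It stood at 457, 645, 771, 514, 4, 3 and 3 in the minus BrdU course, at 121, 188, 241, 268 and 3 in the minus Chir course and at 58, 65, 56, 22, 13, 14 and 4 in the full course. Through day 22 Dio3 was therefore highest where Dlk1 was lowest. Rtl1, a retrotransposon-derived gene antisense to a maternal transcript, was low throughout, at 0 to 26 over the 20 libraries other than CiPSC and 0 to 18 in CiPSC.

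**Figure D2:**
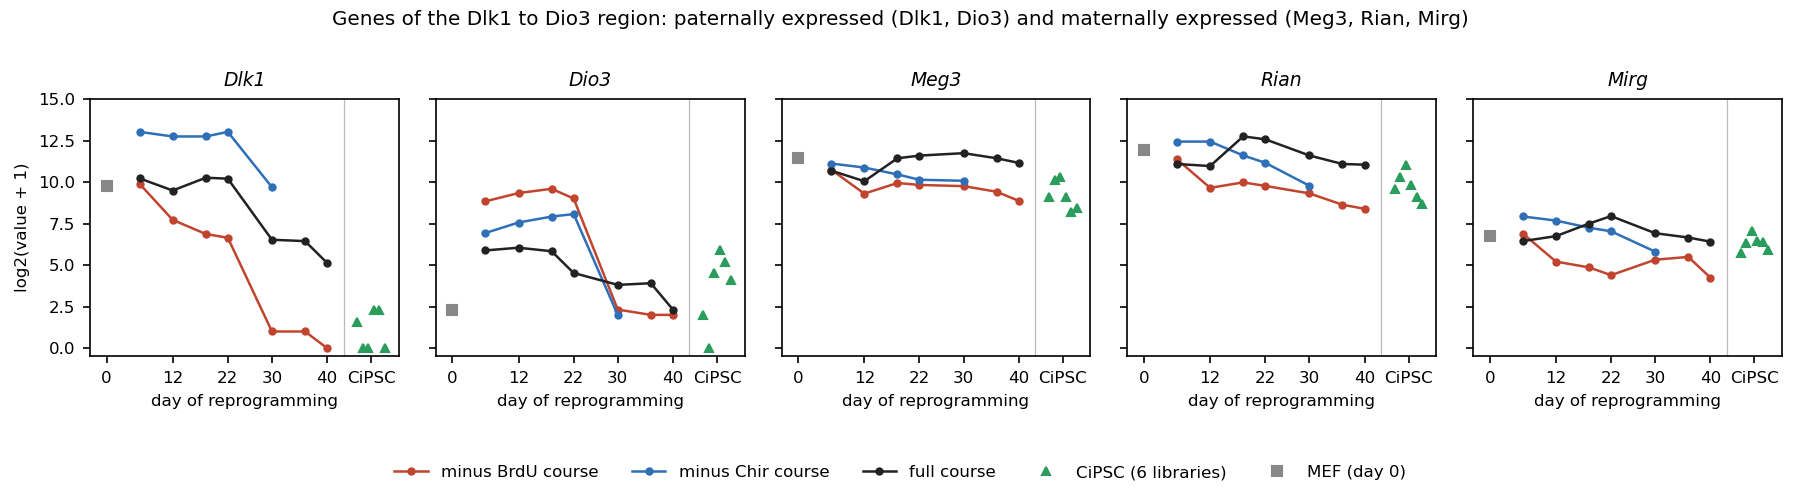
Each panel plots 1 gene of the Dlk1 to Dio3 region as log2(value + 1) against the day of reprogramming, with 1 point per library, lines for the 3 courses, a square for MEF and triangles for the 6 CiPSC libraries. The 3 maternally expressed RNAs Meg3, Rian and Mirg keep levels above 0 in all libraries, while Dlk1 ends at 0 to 4 in CiPSC and at 0 to 1 on days 30 to 40 of the minus BrdU course.

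Grb10 encodes an adaptor that restrains insulin receptor signalling and is expressed from the maternal allele in most tissues. It stood at 1686, 870, 716, 671, 1390, 965 and 1106 in the minus BrdU course, at 5538, 2424, 1371, 1050 and 965 in the minus Chir course, and at 1618, 1305, 1229, 1006, 1718, 1448 and 1390 in the full course. The minus Chir course began above the others on days 6 and 12, and its last value was the lowest of the 3 on day 30. CiPSC ran from 171 to 304 with a median of 211, against 4218 in MEF, and no CiPSC library reached the lowest of the other 20 libraries (671).

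Peg10 and Sgce share a start region and are both read from the paternal allele, but their values ran apart. Peg10 is a gene derived from a retrotransposon and is needed for the mouse placenta. It stood at 982, 1368, 2215, 3420, 166, 85 and 173 in the minus BrdU course, and at 8314, 6084, 2330, 2104 and 982 in the minus Chir course. In the full course it stood at 5529, 8314, 11331, 11331, 11331, 11331 and 21988, so it was on the second step from day 18 and on the first on day 40. That last change is 1 step, and its size as an amount cannot be read. The highest value of the minus BrdU course, 3420, was below the lowest of the full course, 5529. CiPSC held 91 to 283 with a median of 131.5, against 107 in MEF.

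Sgce encodes epsilon-sarcoglycan, a membrane protein. It stood at 171, 186, 228, 142, 734, 910 and 848 in the minus BrdU course, at 132, 78, 98, 92 and 340 in the minus Chir course, and at 112, 114, 188, 210, 596, 590 and 546 in the full course. Every course was higher from day 30 than on any of its earlier days, also in the minus BrdU and minus Chir courses, where Peg10 was lower from day 30. In CiPSC it was 16 to 50 with a median of 38.5, against 301 in MEF, below each of the other 20 libraries (lowest 78). Across the 20 libraries of MEF and the courses, the Pearson correlation of log2 values between Peg10 and Sgce was -0.41, a description over libraries that share courses and successive days.

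Peg3, Plagl1 and Ndn code for nuclear proteins, the first 2 of them zinc finger proteins, and all 3 are read from the paternal allele. Peg3 stood at 3634, 1241, 1583, 1985, 637, 216 and 190 in the minus BrdU course, at 4966, 4966, 2036, 1985 and 532 in the minus Chir course, and at 6869, 3846, 4506, 4208, 4210, 3846 and 3846 in the full course. All 7 values of the minus BrdU course were under the lowest value of the full course, and from day 30 both courses lacking a chemical were at 637 or less. CiPSC held 177 to 324 with a median of 262, against 1138 in MEF.

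Plagl1, which limits cell division in culture and is part of a network of growth genes, had its highest value of any library on day 6 without BrdU. It stood at 4513, 752, 286, 264, 128, 216 and 94 in the minus BrdU course, at 1760, 966, 667, 816 and 219 in the minus Chir course and at 1878, 512, 376, 287, 340, 520 and 758 in the full course. Its CiPSC values of 822 to 1304, with a median of 1149, lay on both sides of the MEF value of 1006. Ndn encodes necdin, which is high in cells that have stopped dividing, such as neurons. It stood at 273, 299, 242, 160, 369, 410 and 390 in the minus BrdU course, at 241, 175, 184, 196 and 272 in the minus Chir course, and at 138, 84, 52, 26, 107, 95 and 83 in the full course. No value of either course lacking a chemical was as low as the highest of the full course (138). CiPSC ran from 70 to 254 with a median of 177.5, against 404 in MEF.

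Mest encodes a protein of the hydrolase fold and is read from the paternal allele in mesoderm of the embryo. It stood at 6868, 2764, 1319, 430, 148, 98 and 90 in the minus BrdU course, at 6869, 6084, 2550, 1342 and 170 in the minus Chir course, and at 3420, 616, 136, 60, 108, 358 and 316 in the full course. On days 6 to 30 the full course was the lowest of the 3, and on days 36 and 40 it was above the minus BrdU course. CiPSC held 98 to 260 with a median of 152, against 745 in MEF.

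The test of the minus BrdU course against the full course asked which genes differed over the 7 shared days, with day as a block. Differences are on the log2(value + 1) scale with standard errors from limma, and calls required an adjusted p (Benjamini-Hochberg, over every gene tested) below 0.05. Of the 10 imprinted genes, 1 was higher and 5 were lower, where 21.1% and 21.5% of 16308 genes were called in those directions and 42.6% in either. The median log2 difference of the 10 was -1.04 against 0.02 over all genes. Ndn rose by 1.95 ± 0.18 (limma adjusted p = 0.000355, higher on 7 of 7 days). Peg10 fell by 4.18 ± 0.74 (limma adjusted p = 0.00275), Dlk1 fell by 3.59 ± 0.61 (0.00244) and Peg3 fell by 2.33 ± 0.45 (0.00375), each lower on 7 of 7 days. Meg3 fell by 1.46 ± 0.27 (limma adjusted p = 0.00322) and Grb10 fell by 0.44 ± 0.12 (0.0166), each on 6 of 7 days. The Grb10 call was lost on days 6 to 30 alone (limma adjusted p = 0.0774) and without the day block (0.0929), and the Dlk1 call without the block (0.0770). H19 was not called (-1.75 ± 0.71, limma adjusted p = 0.0730), but was without day 12 (-2.20, adjusted p = 0.0358). Sgce was not called either (0.37 ± 0.16, limma adjusted p = 0.0876), but was without day 22 (0.52, adjusted p = 0.0102). Mest (0.86 ± 0.64, limma adjusted p = 0.298) and Plagl1 (-0.62 ± 0.44, 0.272) had intervals that held 0, but on days 6 to 30 alone Mest was called, at 1.94 (limma adjusted p = 0.0228). The 2 courses also differ in markers. Of 15 fibroblast markers 11 were higher and 0 lower without BrdU, and of 15 extraembryonic endoderm markers 0 were higher and 14 lower.

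The effect of leaving out BrdU was then compared between days 30 to 40 and days 6 to 22 in 1 model. Of the 10 genes, 0 were called with a more positive effect late and 6 with a more negative one, where 7.02% and 6.58% of all genes were called in those directions and 13.6% in either. The median of the 10 was -2.33 against 0.00 over all genes. Mest stood at a mean log2 difference of -1.07 late and 2.31 early, a change of -3.38 ± 0.67 (limma adjusted p = 0.0146). For Plagl1 the means were -1.89 late and 0.33 early (-2.21 ± 0.51, limma adjusted p = 0.0239). Both stage means thus changed sign, but not every day did: Mest was still above the full course on day 30 (148 against 108), and Plagl1 was already below it on day 18 (286 against 376) and day 22 (264 against 287). Peg10 had -6.70 late and -2.29 early (-4.41 ± 0.32, limma adjusted p = 0.000572), Peg3 had -3.73 late and -1.29 early (-2.45 ± 0.39, 0.00714) and Dlk1 had -5.37 late and -2.26 early (-3.10 ± 0.71, 0.0246). H19 had -4.07 late and 0 early (-4.07 ± 0.46, limma adjusted p = 0.00212), where day 6 has both libraries at the maximum and day 12 and day 18 differ by 1 step in opposite directions. Meg3 (-1.11 ± 0.40), Grb10 (0.07 ± 0.23), Sgce (0.26 ± 0.31) and Ndn (0.14 ± 0.36) were not called, with limma adjusted p = 0.102, 0.877, 0.598 and 0.827. Some of these calls rest on single days, and where a call was lost without 1 day the limma adjusted p lay between 0.0508 and 0.0867. Dlk1 was lost without day 12, 30, 36 or 40 (-2.94, -3.02, -3.06 and -3.22), Mest without day 36 or 40 (-2.99 and -3.02) and Plagl1 without day 12, 36 or 40 (-2.14, -2.53 and -1.66), while Meg3 was called without day 22 (-1.37). With a pseudocount of 5 the Dlk1 change was -1.40 (limma adjusted p = 0.225). With normal scores of ranks it was -0.23 on that scale (limma adjusted p = 0.678). With no intensity trend Dlk1 (limma adjusted p = 0.0531) and Plagl1 (0.0550) lost their calls.

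**Figure D3:**
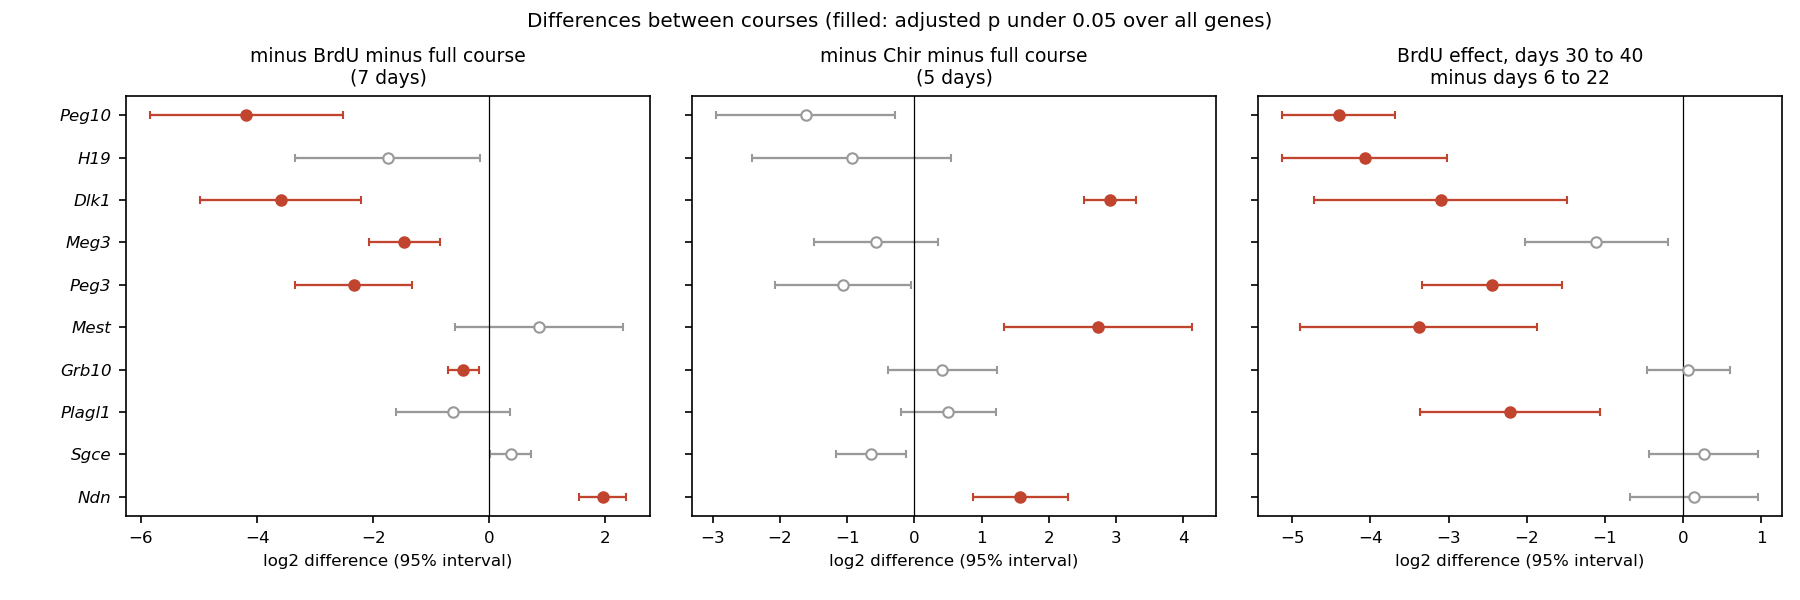
Points are log2 differences between courses from limma for the 10 imprinted genes with 95% intervals, filled where the adjusted p over all genes is under 0.05, for the minus BrdU course less the full course (left), the minus Chir course less the full course (middle) and the late less the early effect of leaving out BrdU (right). Dlk1 lies at -3.59 on the left and at 2.90 in the middle, while Ndn is positive in both, at 1.95 and 1.57.

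Leaving out Chir gave 3 higher and 0 lower imprinted genes over the 5 shared days, where 13.5% and 12.9% of 16248 genes were called in those directions and 26.5% in either. Dlk1 rose by 2.90 ± 0.17 (limma adjusted p = 0.00217), Mest rose by 2.73 ± 0.60 (0.0209) and Ndn rose by 1.57 ± 0.30 (0.0161), each higher on 5 of 5 days. The other 7 were not called. Peg10 (-1.62 ± 0.57, limma adjusted p = 0.0712), Sgce (-0.65 ± 0.22, 0.0664) and Peg3 (-1.06 ± 0.43, 0.103) had negative differences, as had H19 (-0.93 ± 0.63, 0.291) and Meg3 (-0.57 ± 0.39, 0.300). Grb10 (0.41 ± 0.35, limma adjusted p = 0.392) and Plagl1 (0.50 ± 0.30, 0.239) were positive. With 5 days the calls rest on single days. Over all genes 4298 were called, against 25 without day 18 and 226 without day 22, and then Dlk1 was the 1 member still called. Mest was lost without day 12, 18 or 22 (2.58, 2.35 and 2.29) and Ndn without day 18 or 22 (1.51 and 1.25), while Peg10 (-2.17) and Sgce (-0.87) were called without day 6. In 1 fit over the 19 course libraries 3 members were higher and 3 lower, since Peg10 (-2.19), Peg3 (-1.44) and Sgce (-0.59) were then called. Without the day block Mest lost its call (limma adjusted p = 0.118) and Peg10 gained one (0.0430). All 5 adipocyte markers in the table were higher without Chir, with sums of 2198 to 4779 against 364 to 842 in the full course. Without BrdU, where Dlk1 was lower, 3 of these 5 were also higher than in the full course and 0 lower, with sums of 708 to 3481. Of 15 extraembryonic endoderm markers 0 were higher and 12 lower without Chir. The part of these markers in the Dlk1 difference was not tested.

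The minus Chir course was also set against the minus BrdU course over 5 days. Of the 10 imprinted genes 2 were higher and 1 was lower, where 16.9% and 15.2% of 16087 genes were called in those directions and 32.2% in either. Dlk1 rose by 5.82 ± 0.68 without Chir (limma adjusted p = 0.00130), higher on 5 of 5 days. Mest rose by 0.79 ± 0.25 (limma adjusted p = 0.0462), with day 6 level between the courses (6869 against 6868). Sgce fell by 0.91 ± 0.17 (limma adjusted p = 0.00697), lower on 5 of 5 days. Mest lost its call without day 12, 18 or 22 (0.70, 0.74 and 0.57), and without the day block Dlk1 alone was called. Meg3 (0.62 ± 0.20, limma adjusted p = 0.0539), Grb10 (0.85 ± 0.31, 0.0716) and Peg10 (1.43 ± 0.56, 0.0877) were not called, and neither were Plagl1 (0.52 ± 0.39), Peg3 (0.51 ± 0.31), H19 (-0.19 ± 0.18) and Ndn (-0.30 ± 0.16). Leaving out single days called Grb10 (1.19 without day 30), Plagl1 (0.99 without day 6) and Peg10 (1.97 without day 22). The course comparisons share libraries, so their results are not independent of each other.

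Trends with day, taken over MEF and the libraries of a course, called few of the 10. In the full course 0 were higher and 1 lower, where 9.31% and 7.42% of 16314 genes were called in those directions and 16.7% in either. Dlk1 fell by 1.24 ± 0.27 per 10 days on the log2 scale (limma adjusted p = 0.0148), a call lost without day 36 (-1.22, adjusted p = 0.0505) or day 40 (-1.03, adjusted p = 0.0726). Peg10 had a slope of 1.23 ± 0.39 (limma adjusted p = 0.0603) and Sgce one of 0.52 ± 0.16 (0.0590), and without MEF the Sgce slope was 0.83 and called (0.00361). In the minus BrdU course 0 were higher and 1 lower, where 0.315% and 0.560% of 15886 genes were called in those directions and 0.875% in either. Dlk1 fell by 2.75 ± 0.27 per 10 days (limma adjusted p = 0.0174), lost without day 6, 36 or 40 at slopes of -2.67, -2.73 and -2.75. Without MEF 6 members were called in that course, with H19 at -1.51, Peg3 at -1.20, Mest at -1.94, Plagl1 at -1.32 and Sgce at 0.84 beside Dlk1, and over all genes 1095 were called, against 139 with MEF. Without day 12 Meg3 was called too (-0.55), and without day 22 H19 was (-1.17). In the minus Chir course limma called 0 of the 10 in either direction, where 0.100% of 16004 genes were called higher, 0.100% lower and 0.200% in either. By limma 4 of the 10 had an unadjusted p under 0.05. The share of all genes under that threshold was not taken, so this count cannot be weighed. Without MEF Peg10 was called there at -1.33, against 0.42 ± 0.79 with it. Meg3 had a slope of -0.49 ± 0.08 there (limma adjusted p = 0.0686) and Grb10 one of -0.90 ± 0.16 (0.0740). The remaining slopes lay between -0.67 for Mest and 0.18 for H19 in the full course, between -1.35 for Mest and 0.58 for Sgce in the minus BrdU course, and between -0.98 for H19 and 0.42 for Peg10 in the minus Chir course.

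CiPSC were compared with MEF and with day 40 of both long courses in 1 fit. Each of those is a lone library that is assumed to vary like the CiPSC libraries, and the 3 comparisons share the 6 CiPSC libraries. Against MEF, 0 of the 10 imprinted genes were higher and 6 were lower, where 22.2% and 17.9% of 16416 genes were called in those directions and 40.2% in either. The median of the 10 was -2.25 against 0.15 over all genes. Dlk1 averaged 1.67 ± 1.97 in CiPSC (SD, n = 6) against 854 in MEF (-8.70 ± 1.16 on the log2 scale, limma adjusted p = 0.00229). H19 averaged 41.2 ± 38.2 in CiPSC against 11331 in MEF (-8.68 ± 1.63, limma adjusted p = 0.00825). Grb10 averaged 220 ± 45.3 in CiPSC against 4218 in MEF (-4.28 ± 0.28, limma adjusted p = 0.000117). Sgce (37 ± 11.9 against 301, -3.07 ± 0.57), Mest (161 ± 56.5 against 745, -2.27 ± 0.48) and Peg3 (265 ± 53.5 against 1138, -2.13 ± 0.32) were lower as well, with limma adjusted p = 0.00815, 0.0130 and 0.00342. Meg3 (-2.22 ± 0.86, limma adjusted p = 0.0907), Ndn (-1.47 ± 0.76, 0.181), Peg10 (0.38 ± 0.60, 0.650) and Plagl1 (0.09 ± 0.27, 0.814) were not called, and 95% intervals ran from -4.34 to -0.11 for Meg3 and from -0.58 to 0.77 for Plagl1. Igf2 was called lower too (limma adjusted p = 0.0109). These 6 calls held without each CiPSC library in turn. The size of the Dlk1 difference depends on the 1 added before the log. Of 15 fibroblast markers 14 were lower in CiPSC and 0 higher, and of 10 macrophage markers 10 were lower, and their part in these differences was not tested.

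Against day 40 of the full course, 0 of the 10 were higher and 6 lower in CiPSC, where 14.8% and 12.7% of genes were called in those directions and 27.5% in either. H19 differed by -9.64 ± 1.63 (limma adjusted p = 0.00980) and Peg10 by -7.29 ± 0.60 (0.000561), both from day 40 values at the table's maximum, so that neither size is an amount. Sgce differed by -3.93 ± 0.57 (limma adjusted p = 0.00598), Peg3 by -3.88 ± 0.32 (0.000531) and Grb10 by -2.67 ± 0.28 (0.00162). The Dlk1 difference of -4.09 ± 1.16 (limma adjusted p = 0.0480) lost its call without CiPSC library 1, 2, 3 or 6, with values of -4.20 to -3.88. Meg3 (-1.95 ± 0.86, limma adjusted p = 0.154), Mest (-1.04 ± 0.48, 0.171), Ndn (0.80 ± 0.76, 0.495) and Plagl1 (0.50 ± 0.27, 0.236) were not called. The extraembryonic endoderm markers stood with the full course here, with 13 of 15 lower in CiPSC.

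Against day 40 of the minus BrdU course, 1 was higher and 3 were lower in CiPSC, where 22.4% and 19% of genes were called in those directions and 41.5% in either. Plagl1 rose by 3.50 ± 0.27 (limma adjusted p = 0.000227), with 822 to 1304 in CiPSC against 94 in that library. Sgce fell by 4.56 ± 0.57 (limma adjusted p = 0.00161) and Grb10 fell by 2.35 ± 0.28 (0.00126). H19 fell by 5.25 ± 1.63 (limma adjusted p = 0.0456), a call lost without CiPSC library 1, 4, 5 or 6 at values of -5.46 to -5.16. Peg10 (-0.31 ± 0.60, limma adjusted p = 0.715), Peg3 (0.45 ± 0.32, 0.302), Mest (0.76 ± 0.48, 0.255), Meg3 (0.34 ± 0.86, 0.776) and Ndn (-1.42 ± 0.76, 0.191) were not called. Dlk1 was listed at 0 in the day 40 library and in 3 of 6 CiPSC libraries.

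**Figure D4:**
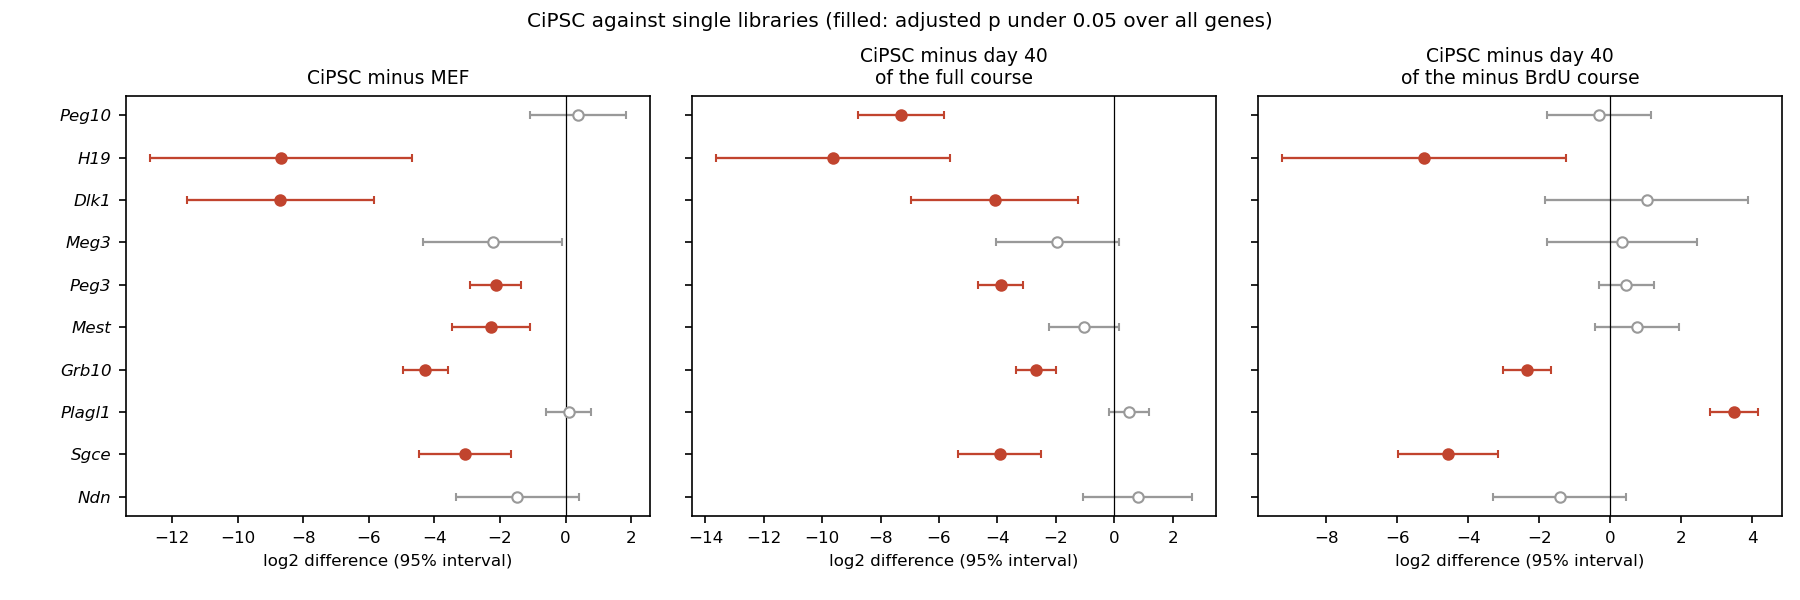
Points are log2 differences of the 6 CiPSC libraries less 1 library from limma for the 10 imprinted genes with 95% intervals, filled where the adjusted p over all genes is under 0.05, against MEF (left), day 40 of the full course (middle) and day 40 of the minus BrdU course (right). Grb10, H19 and Sgce are lower in CiPSC in all 3 panels, and Plagl1 is called in the right panel alone, where CiPSC held 822 to 1304 against 94.

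The 10 genes were then set beside other imprinted genes. Of 26 further paternally expressed genes 23 were in the table, and of 35 further maternally expressed genes 31 were. Against MEF, 12 of the 23 paternally expressed genes were higher in CiPSC and 1 was lower, with a median log2 difference of 1.30, while 1 of the 31 maternally expressed genes was higher and 11 were lower, with a median of -1.24 (0.15 over all genes, of which 22.2% were higher and 17.9% lower). The paternally expressed gene that was lower was Igf2. Snurf, which shares its transcript with Snrpn so that reads cannot be told apart, held 72 to 92 in CiPSC and was listed at 0 in MEF, which allows no fold. The maternally expressed gene that was higher was Cobl, an actin nucleator gene, which held 446 to 773 in CiPSC against 36 in MEF (3.96 ± 0.32, limma adjusted p = 0.000307). Among the maternally expressed genes that were lower, Osbpl5 and Tfpi2 were listed at 0 in every CiPSC library, against 478 and 70 in MEF. Zim1, a zinc finger gene beside Peg3, held 2 to 7 in CiPSC against 50 in MEF (-3.31 ± 0.61, limma adjusted p = 0.00785), and Cd81 held 1060 to 1650 against 3082 (-1.24 ± 0.21, 0.00583). The difference between the paternal and the maternal list was not tested.

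Against day 40 of the full course, 7 of the 23 paternally expressed genes were higher in CiPSC and 4 were lower, and 2 of the 31 maternally expressed genes were higher and 11 lower, where 14.8% of all genes were higher and 12.7% lower. Cobl rose by 2.13 ± 0.32 (limma adjusted p = 0.00651) and Zim1 fell by 3.66 ± 0.61 (0.00947). Slc22a3, a cation transporter gene, was listed at 0 in every CiPSC library, against 10 on day 40 of the full course and 0 in MEF. Against day 40 of the minus BrdU course, 12 and 1 of the paternally expressed genes and 3 and 12 of the maternally expressed genes were higher and lower, where 22.4% and 19% of all genes were. Slc38a4, an amino acid transporter gene read from the paternal allele, held 918 to 1318 in CiPSC against 7 in that library (7.11 ± 0.19, limma adjusted p = 9.57e-07). Calcr, the calcitonin receptor gene, was listed at 0 in CiPSC against 62 there, but it was also at 0 in MEF and on day 36 of the minus BrdU course.

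**Figure D5:**
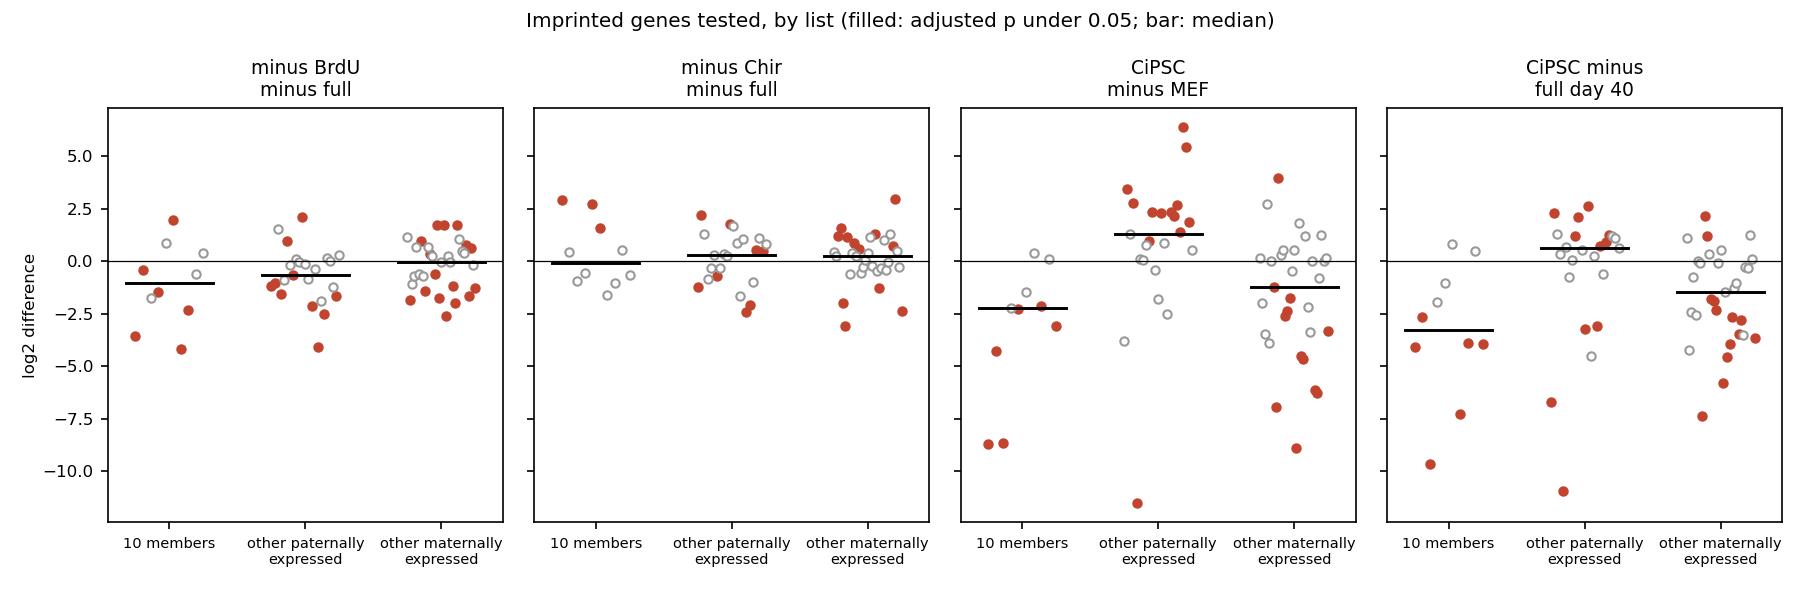
Each point is the log2 difference of 1 imprinted gene from limma (vertical axis), for minus BrdU less full course, minus Chir less full course, CiPSC less MEF and CiPSC less day 40 of the full course from left to right, filled where its adjusted p over all genes is under 0.05, for the 10 members, 23 other paternally expressed genes and 31 other maternally expressed genes (22 paternally expressed genes in the second panel), with bars at the medians. In CiPSC less MEF the medians lie at -2.25 for the 10 members, 1.30 for the paternally expressed and -1.24 for the maternally expressed genes, and points of genes listed at 0 in CiPSC depend on the 1 added before the log.

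Between courses the wider lists moved both ways. Without BrdU, 2 of 23 paternally expressed genes were higher and 8 lower, and 7 of 31 maternally expressed genes were higher and 9 lower, where 21.1% of all genes were higher and 21.5% lower. The maternal shares of 22.6% and 29% are near those of all genes. Nap1l5, an intronless gene of the nucleosome assembly family, held 63 to 166 without BrdU against 9 to 60 in the full course (2.09 ± 0.25, limma adjusted p = 0.000759). Impact, a translation regulator gene, rose by 0.96 ± 0.11 (limma adjusted p = 0.000724), the potassium channel gene Kcnq1 by 1.70 ± 0.26 (0.00163) and Osbpl5 by 1.70 ± 0.31 (0.00312). Snhg14, the long RNA that runs through the Snrpn region, held 102 to 226 without BrdU against 200 to 1618 in the full course and fell by 2.51 ± 0.37 (limma adjusted p = 0.00136). Gab1 fell by 1.55 ± 0.17 (limma adjusted p = 0.000560) and Zdbf2 by 1.67 ± 0.23 (0.00111). Meg3's neighbours moved with it, as Rian fell by 2.0 ± 0.36 (limma adjusted p = 0.00283) and Mirg by 1.74 ± 0.40 (0.00864), while Dio3 (1.54 ± 0.83, 0.161), Igf2 (-0.89 ± 0.49, 0.168) and Rtl1 (-0.36 ± 0.64, 0.673) were not called. For the late less the early effect, where 7.02% of all genes were called higher and 6.58% lower, 1 of 23 paternally expressed genes was higher and 10 were lower, among them Dio3 (-4.86 ± 0.51, limma adjusted p = 0.00160) and Igf2 (-2.89 ± 0.23, 0.000677). Of the 31 maternally expressed genes 2 were higher and 3 lower there, with Ampd3 at 2.32 ± 0.51 (limma adjusted p = 0.0209), Tssc4 at 0.80 ± 0.20 (0.0305), Slc22a3 at -3.38 ± 0.48 (0.00454) and Ppp1r9a at -1.77 ± 0.25 (0.00475).

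Without Chir, 4 of 22 paternally expressed genes were higher and 4 lower against the full course, and 8 of 31 maternally expressed genes were higher and 4 lower, where 13.5% of all genes were higher and 12.9% lower. The paternal share of 18.2% each way and the maternal share of 12.9% lower are near those of all genes. Tspan32, a tetraspanin gene, held 16 to 50 without Chir against 1 to 8 in the full course (2.96 ± 0.53, limma adjusted p = 0.0144). Ddc, which codes for the enzyme that makes dopamine and lies beside Grb10, held 84 to 233 without Chir against 18 to 69 (2.22 ± 0.43, limma adjusted p = 0.0167). Pon2 rose by 1.29 ± 0.18 (limma adjusted p = 0.00971) and Asb4 by 1.18 ± 0.21 (0.0138), and both lie beyond Peg10 on chromosome 6. Zim1 fell by 2.36 ± 0.40 (limma adjusted p = 0.0127) and Slc38a4 by 2.11 ± 0.30 (0.00999). Rian (-0.31 ± 0.54), Mirg (0.03 ± 0.40), Dio3 (1.28 ± 0.67), Igf2 (-0.34 ± 0.43) and Rtl1 (1.04 ± 0.34) were not called, with limma adjusted p = 0.689, 0.963, 0.183, 0.573 and 0.0596. Without Chir against without BrdU, 5 of 22 paternally expressed genes were higher and 4 lower, and 10 of 31 maternally expressed genes were higher and 3 lower, where 16.9% of all genes were higher and 15.2% lower. Rian rose there by 1.47 ± 0.30 (limma adjusted p = 0.0107) and Mirg by 1.80 ± 0.35 (0.00876), beside Dlk1, while Dio3 fell by 1.32 ± 0.25 (0.00767). Tspan32 rose by 4.99 ± 0.38 (limma adjusted p = 0.000331) and Ddc by 3.21 ± 0.28 (0.000537), and Atp10a fell by 3.09 ± 0.43 (0.00252).

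Over the full course, 5 of 23 paternally expressed genes had a called rise with day and 0 a fall, and 3 of 31 maternally expressed genes had a rise and 3 a fall, where 9.31% of all genes rose and 7.42% fell. The maternal share, 9.68% each way, is near that of all genes. Sfmbt2, a polycomb gene, rose by 1.49 ± 0.12 per 10 days (limma adjusted p = 0.00182), and Tnfrsf23, a decoy receptor gene, fell by 0.93 ± 0.13 (0.00352). In the minus BrdU course Igf2 fell by 0.96 ± 0.12 per 10 days and Rian by 0.81 ± 0.10 (limma adjusted p = 0.0179 for each), 1 gene of each list, where 0.560% of all genes fell. Both calls were lost without day 6 or 36. In the minus Chir course 1 paternally expressed gene was called, Slc38a4 at -0.81 ± 0.08 (limma adjusted p = 0.0493), where 0.200% of all genes were. That call was lost without day 6, 12, 18 or 22 and with no intensity trend.

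Proteins that keep or erase imprints were followed as a list of 16 genes. Without BrdU, 1 was higher and 13 were lower than in the full course, with a median of -1.18, and without Chir 0 were higher and 8 were lower, with a median of -1.02. Of the 16 genes 81.2% were thus lower without BrdU, against 21.5% of all genes, and 50% without Chir, against 12.9%. Uhrf1, which brings the maintenance methyltransferase to newly copied DNA, held 3 to 108 without BrdU, 25 to 106 without Chir and 132 to 489 in the full course. It fell by 4.07 ± 0.69 without BrdU (limma adjusted p = 0.00233) and by 2.50 ± 0.47 without Chir (0.0152). Dnmt3a, a de novo methyltransferase gene, fell by 1.53 ± 0.24 without BrdU (limma adjusted p = 0.00179), and Tet1 and Tet3, of enzymes that oxidize methylated cytosine, fell by 2.83 ± 0.49 (0.0138) and 1.49 ± 0.25 (0.0125) without Chir. The gene that was higher without BrdU was Zfp57, at 165 to 344 against 82 to 232 (0.64 ± 0.15, limma adjusted p = 0.00986). Over the full course 6 of the 16 rose and 0 fell, where 9.31% of all genes rose and 7.42% fell. Dppa3, which protects maternal methylation in the zygote, rose by 1.85 ± 0.27 per 10 days (limma adjusted p = 0.00376), Tet1 by 0.92 ± 0.14 (0.00481) and Dnmt3l by 1.42 ± 0.25 (0.00714).

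In CiPSC 11 of the 16 were higher than in MEF and 0 were lower, with a median of 2.53. Of all genes 22.2% were higher and 17.9% lower there, with a median of 0.15. Dnmt3b held 416 to 570 in CiPSC against 5 in MEF (6.28 ± 0.21, limma adjusted p = 3.65e-06), and Hells, a chromatin remodeller gene, held 1496 to 2110 against 170 (3.39 ± 0.20, 6.75e-05). Against day 40 of the full course 5 were higher and 1 was lower, where 14.8% of all genes were higher and 12.7% lower. Zfp57 held 842 to 2038 in CiPSC against 167 in that library (2.95 ± 0.44, limma adjusted p = 0.00665). Against day 40 of the minus BrdU course 11 were higher and 0 lower, where 22.4% of all genes were higher and 19% lower. Uhrf1 held 1190 to 2628 in CiPSC against 7 in that library (7.80 ± 0.40, limma adjusted p = 3.01e-05).

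Genes whose pattern was most like that of a member were taken by the Pearson correlation of log2 values over the 20 libraries of MEF and the courses, as a description in which libraries share courses and successive days. Peg10 was closest to Fam60a (r = 0.97), a gene of a histone deacetylase complex, then Nsd1 (0.94) and Slco2a1 (0.93). H19 was closest to Rassf4 (r = 0.93), then its neighbour Igf2 (0.93) and another member, Peg3 (0.91). For Peg3 the closest were Smc2 (0.96), Hjurp (0.94) and Setdb1 (0.93), of condensin, centromere assembly and histone methylation. For Ndn they were Cavin3 (r = 0.96), Cpped1 (0.96) and Rsu1 (0.95), and for Sgce they were Hspb2 (0.96), Manba (0.94) and Nbas (0.93). Meg3 was closest to Igf2bp3 (r = 0.91), Diaph3 (0.91) and Cmtr1 (0.89). Dlk1 was closest to Lrrc8d, Unc5b and Ccne1 (r = 0.91 each), and Mest to C430049B03Rik (0.93), Smarce1 (0.89) and Marco (0.89). Grb10 and Plagl1 had the weakest nearest genes, with Phkb (r = 0.80), Aff3 (0.80) and Stat5b (0.79) for Grb10 and Gfra3 (0.86), Penk (0.84) and Phf19 (0.84) for Plagl1. Among the members, Dlk1 and Sgce ran most oppositely (r = -0.87), then Peg10 and Ndn (-0.82), and Meg3 with its neighbour Rian had r = 0.87.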

How the data were processed

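RNA was extracted with TRIzol and made into libraries with a TruSeq RNA kit for sequencing on a NextSeq 500, per the labels' protocols. Tools listed in the submitters' processing notes, without versions, are RSEM, Bowtie2 and bcl2fastq, and the build listed is mm10. The deposited table has 16718 genes in rows and 26 libraries in columns, and its title speaks of CPM. The values contradict that unit, so they were treated as a normalized score, as deposited by the authors. Sums per library lie between 4143561 and 4162600, medians are 76 or 77, and all libraries share a ladder of steps with 10 genes on each. How the authors normalized is not given in the sources used here. Depth is therefore unknown, and 5.59% to 14.2% of genes are listed at 0 per library. Whether reads were counted by strand is not stated, so overlapping or antisense genes are uncertain.

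Tests used limma 3.58.1 in R 4.3.3 on log2(value + 1), letting the prior variance follow the mean level, over genes with a mean of at least 1 in the libraries fitted. They were two-sided, with Benjamini-Hochberg adjustment over all genes tested. Courses were compared with day as a block, since day is a label that the courses share, and slopes were fitted over MEF and 1 course. CiPSC were set against lone libraries with the spread of CiPSC alone. The labels name no separate cultures. In the course tests the days served as repeats, so their p-values measure how far the course difference varied from day to day. Successive days of 1 course are not independent replicates. For the slopes, p-values measure scatter around a line over such days. In the CiPSC tests, p-values measure the spread between the CiPSC libraries, which may be technical. Some of the fits were run on simulated data with known changes. They were minus BrdU and minus Chir against the full course, the full-course slope and CiPSC against MEF. The simulated noise was normal and independent between libraries, without steps or a maximum, so it cannot show how those affect the tests. Values and drawings came from Python 3.11.15 with pandas 2.3.3, numpy 2.4.6 and matplotlib 3.10.9. Coordinates are from GENCODE M21 on GRCm38 and sequences from RefSeq on GRCm38.p6.

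The members and lists were chosen with earlier results of these data known. All 10 members are named in each comparison between courses or with CiPSC. Of the other imprinted genes and imprint factors, up to 4 called genes in each direction with the smallest p per comparison could be named, besides the neighbours Igf2, Rian, Mirg, Rtl1 and Dio3. Uhrf1 and Zfp57 in the course comparisons were named after their values were seen. For each member the 3 genes with the highest Pearson r were named. Alternatives were a pseudocount of 5, other filters on low values, no intensity trend, no day block, 1 fit over all 19 course libraries, days 6 to 30 only, slopes without MEF, values at the maximum set to missing, each day or CiPSC library left out and, chosen after seeing the steps, normal scores of ranks.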

Additional observations from a re-analysis of the deposited data

Results flagged for a closer look

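In 40 groups of 4 or more libraries, 3 held a value that stood apart from the others by Dixon's criterion, which chance meets in about 1 group in 20. Dlk1 stood at 825 on day 30 of the minus Chir course, where the nearest other day had 6861. Peg3 stood at 6869 on day 6 of the full course, where the nearest other day had 4506. Sgce stood at 16 in CiPSC library 6, where the nearest other library had 33. The days of a course are not replicates, so the first 2 of these compare stages.

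For 6 members the minus BrdU course stood in a different relation to the full course late (days 30 to 40) than early (days 6 to 22), by the test of that difference in limma. All 6 were called with a more negative effect late, as were 6.58% of all genes, with 13.6% called in either direction. Dlk1, Mest and Plagl1 each lost the call when certain single days were left out, and 3 to 7 members were then called. Dlk1 also lost it with a pseudocount of 5 and with normal scores of ranks, and Dlk1 and Plagl1 lost it with no intensity trend. The late less the early log2 effect was -4.41 for Peg10, -4.07 for H19, -3.38 for Mest, -3.10 for Dlk1, -2.45 for Peg3 and -2.21 for Plagl1.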

How the results depend on the processing

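Over 1305 refitted values of the members, 1217 kept their direction and their side of the threshold, 47 lost a call, 26 gained one and 15 changed direction; the cause was not tested. With values at the maximum set to missing, 95 of 100 values had a fit, and all 95 kept their call. Only H19 (9 libraries) and Peg10 (1 library) hold the maximum, so refits of the other members left their own values unchanged. Values on the lower steps were kept. H19 without BrdU, without Chir and late against early, and H19 and Peg10 in CiPSC against day 40 of the full course, had no fit. For these results, which use values at the maximum, the part of the maximum was not tested.

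Members called without Chir against the full course numbered 6 (3 higher, 3 lower) in 1 fit over 19 course libraries and 1 to 5 with each day left out. Without Chir against without BrdU the count was 1 without the day block (the block pairs libraries of the same day) and 2 to 4 with each day left out. Leaving out each day gave 3 to 7 for late against early, 0 to 1 for the full-course slope, 0 to 6 for the minus BrdU slope and 0 to 1 for the minus Chir slope. The full-course slope without MEF called 2, and the minus BrdU slope called 2 with a pseudocount of 5 and 2 with normal scores of ranks. Over all genes, the calls without BrdU numbered 3735 on days 6 to 30 only, against 6946, and those without Chir 6895 in 1 fit and 25 to 4994 with each day left out, against 4298. With each day left out (day 0, MEF, for the minus BrdU and minus Chir slopes only), all genes called ran from 713 to 2472 for late against early (2218 with all), from 1377 to 2551 for the full-course slope (2729), from 0 to 1095 for the minus BrdU slope (139) and from 0 to 142 for the minus Chir slope (32). Counts of members did not always move with these counts. Without day 12 the minus BrdU slope called 51 genes and 2 members, against 139 genes and 1 member with all days.

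In 1 fit over 19 course libraries H19 was 0.31 without Chir against without BrdU, and without MEF the full-course slopes of Peg3 and Grb10 were -0.16 and 0.017. With each day left out, the late less early effect ran from -0.17 to 0.37 for Ndn, -0.037 to 0.24 for Grb10 and -0.0086 to 0.41 for Sgce. The minus Chir slope ran from -1.33 to 1.27 for Peg10, -1.18 to 1.15 for Dlk1, -1.36 to 0.084 for Peg3, -2.24 to 0.11 for Mest, -0.70 to 0.55 for Sgce and -0.46 to 0.096 for Ndn.

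The stepped scale limits what a fold means, most plainly for the 7 members that reach the 10 steps counted. Values of all 10 members below those steps are best read as positions too. Each course has 1 library per day, MEF is 1 library, and allele-specific reads were not used here.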
